A study of Paracentrotus lividus with 19 samples.

Results

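In embryos of the sea urchin Paracentrotus lividus, 35 assembled transcript features of unknown identity stood at least 2 times higher with zinc than in controls in every one of 3 sets of libraries. They were selected on these measured values among the numbered contigs and LOC identifiers of the table. Per set, the mean CPM (counts scaled to the library's total) of the ZnO and ZnSO4 libraries plus 1 was divided by the mean CPM of the controls plus 1, and a feature was kept where this ratio was at least 2 in F1, F2 and F3. Of 63389 features, 62703 were contigs (51360) or LOC identifiers (11343), 50186 of these had a mean of at least 1 CPM over the 19 libraries, and 35 met the rule (0.0697%). They comprised 33 contigs, 0.0821% of the 40203 eligible contigs, and LOC100892571 and LOC764451, 0.0200% of the 9983 eligible LOC identifiers. The deposited table does not pair contigs or LOC identifiers with gene names, so no role is given to any of the 35.

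Zinc is an essential metal that becomes toxic in excess. Animal cells hold it in narrow bounds with transporters that move it across membranes and with metallothioneins, small cysteine-rich proteins that bind zinc and other metals. In vertebrates and insects the metal-responsive transcription factor MTF-1 senses excess zinc and raises transcription of metallothionein genes. Particles of zinc oxide dissolve in part in sea water and release zinc ions, whereas iron oxide is sparingly soluble. Iron is handled by other proteins, such as ferritin.

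The libraries were made from poly(A) RNA of whole embryos 24 h after fertilization. Eggs were left unexposed after fertilization (4 control libraries) or spent the 24 h in Fe2O3 particles (4), the salt FeCl3 (4), ZnO particles (3) or the salt ZnSO4 (4). The labels give 5e-05 M and 4 mg/L of iron for Fe2O3, 1e-05 M and 0.8 mg/L of zinc for ZnO, and the same metal concentrations for the salts. No figure is recorded for the FeCl3 and ZnSO4 libraries themselves, so an equal dose of metal in particle and salt could not be checked. The molar and the mass figures are printed as labelled, without reconciling them. Iron and zinc were thus given at different doses, and their values are set side by side without a comparison of the metals. In F1 each treatment had 2 libraries, except ZnO with 1, and in F2 and F3 each had 1. The labels do not explain the sets, and they do not state whether libraries come from separate cultures. The p-values therefore measure only how far these samples differ, and that spread may be technical.

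Library totals ran from 24438369 to 32801015 counts. Sets differed far more than treatments, with correlations of log2 CPM of 0.968 to 0.984 between treatments of a set and of 0.808 to 0.839 between sets. Of 16 marker names of skeletogenic, gut, ectoderm, apical plate and ciliated cells and of yolk, 13 matched a feature, and SM50, MSP130 and DYL did not. Skeletogenic markers summed to 335 to 470 CPM and ciliary tubulin TBA1 to 802 to 1184 CPM over all libraries, with overlapping treatments. Single skeletogenic markers differed in direction. PM27 stood at 158 to 204 CPM in controls, 190 to 253 with ZnO and 204 to 231 with ZnSO4. SM30A stood at 34.2 to 70.2 CPM in controls, 18.5 to 33.7 with ZnO and 22.4 to 41.4 with ZnSO4. Ectoderm markers summed to 475 to 618 CPM in controls, 455 to 600 with Fe2O3, 464 to 624 with FeCl3, 270 to 524 with ZnO and 182 to 291 with ZnSO4. Apical plate markers summed to 70.7 to 97.9 CPM in controls, 78.1 to 83.0 with Fe2O3, 75.5 to 87.4 with FeCl3, 11.7 to 21.0 with ZnO and 8.90 to 96.9 with ZnSO4. The ectoderm sum was thus lower with ZnSO4, and the apical plate sum lower with ZnO, than in any control, while the iron forms overlapped. The gut marker ENDO16 stood at 497 to 667 CPM in controls, 495 to 681 with Fe2O3 and 486 to 640 with FeCl3. It stood at 347 to 894 CPM with ZnO and 176 to 766 with ZnSO4, so zinc libraries lay both below and above all controls. The ectoderm markers did not move together. CHRD stood at 237 to 314 CPM in controls and at 4.39 to 80.0 with ZnSO4, and HMX and DLX were also lower with ZnSO4 than in any control. UNIV stood at 85.8 to 106 CPM in controls and at 111 to 143 CPM with ZnSO4. The part of these shifts in the zinc values was not tested. In RNA from whole embryos, fewer cells of a type and less RNA per cell cannot be told apart.

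Over all 19 libraries the 35 features had means from 1.91 to 107 CPM, with a median of 16.3 CPM, against 4.83 CPM over all eligible contigs and LOC identifiers. In the controls their median was 3.48 CPM, against 4.76 CPM. The rule favours features that are high with zinc and low in controls, so nothing is read from either difference. The ratio of zinc to control, which chose them, had a median of 10.3 in F1, 4.08 in F2 and 4.66 in F3, and was largest in F1 for 26 features. In 16 features it was at least 4 in every set, and in 7 at least 8. Many more features passed in a single set (381) or in exactly 2 sets (56) than in all 3. Just inside the threshold lay LOC100892571, contig_26085 and contig_33556, with smallest ratios between 2.04 and 2.11. Just outside lay contig_29993, contig_37580 and contig_09627, with 2.00, 1.99 and 1.98, the first of them under 2 before rounding.

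The steepest feature was contig_20334. Its controls stood at 0.306 and 0.397 CPM in F1, 1.70 in F2 and 0.956 in F3. ZnO gave 39.8, 38.3 and 26.4 CPM in F1, F2 and F3, and ZnSO4 gave 51.5 and 43.3 in F1, 55.4 in F2 and 42.1 in F3. All zinc libraries lay far above all controls. In proportion, though not in CPM, the level with zinc varied less between sets than that of the controls. The controls rest on 8 and 12 counts in F1, 47 in F2 and 25 in F3. In contig_50659, controls stood at 15.0 and 12.0 CPM in F1, 5.60 in F2 and 9.33 in F3, ZnO libraries at 181, 83.4 and 96.1 CPM, and ZnSO4 libraries at 257, 229, 107 and 118 CPM. Here too no zinc library came near a control.

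Other features carried large set differences on top of the zinc difference. In contig_37676, controls stood at 4.17 and 3.97 CPM in F1, 17.6 in F2 and 111 in F3, and zinc libraries at 11.4 to 12.5 CPM in F1, 34.2 and 48.3 in F2 and 232 and 269 in F3. The single F3 control thus exceeded every zinc library of F1 and F2. The most abundant feature, contig_44834, was instead highest in F1, with controls at 126 and 142 CPM in F1, 20.1 in F2 and 24.7 in F3, and zinc libraries at 284 to 295, 36.8 and 53.9, and 65.3 and 76.1 CPM.

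Across the sets, every zinc library lay above every control in 26 of the 35 features (0.302% of the 62865 features tested did so), and above every control and iron library in 19 (0.119%). Within each set all 35 met both conditions (3.14% and 0.881% of features). The counts against control follow from how the features were chosen. The rule did not compare zinc with iron, but it picks features that are high with zinc, which favours the counts against iron without fixing them. In edgeR's quasi-likelihood fit all 35 were called against control (a Benjamini-Hochberg adjusted p under 0.05, over the whole table) with ZnO, where 0.948% of features were called higher, and with ZnSO4, where 2.35% were. Nothing is read from these calls, since the rule used the same comparison.

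**Figure D1:**
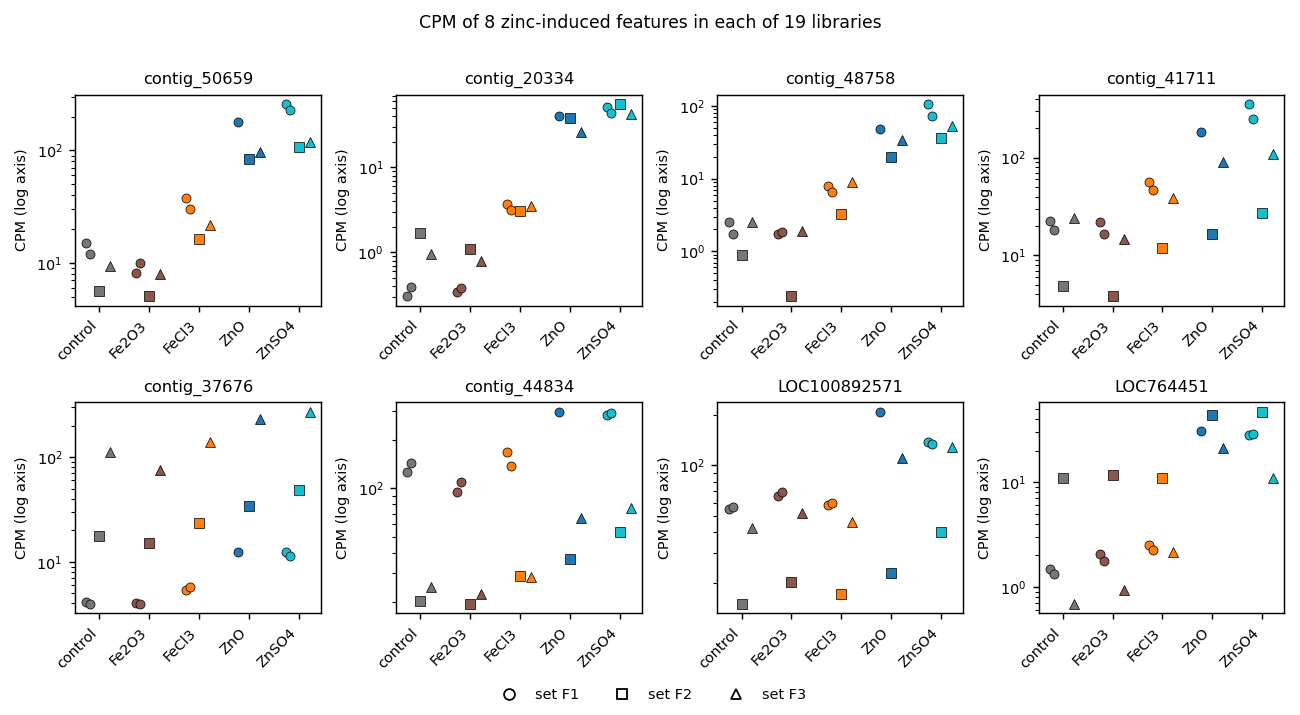
CPM on a log axis of 8 of the 35 features in each of the 19 libraries, by treatment, with the marker shape giving the set. In contig_20334 the zinc libraries (26.4 to 55.4 CPM) stand clear of all others, and in LOC100892571 and LOC764451 the F2 libraries stand apart from those of F1.

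The question of particle against salt was asked first for zinc. The rule used the mean of both zinc forms and not their difference, but it is not neutral to form. In F1 that mean holds 2 ZnSO4 libraries and 1 ZnO library. With ZnO alone, 29 of the 35 features had a ratio of at least 2 in every set, and with ZnSO4 alone 34 had. Some features thus passed through a high ZnSO4 value, which favours the salt in the counts that follow. Of the 35 features, 0 were called between ZnO and ZnSO4 by edgeR (adjusted p) and 0 by DESeq2. Over all 62865 features edgeR called 49 (0.0779%) and DESeq2 191 (0.304%). At an unadjusted p under 0.05, edgeR counted 24 of the 35, against 6.86% of all features. DESeq2 counted 20 of the 35, against 3787 of all 62865 features. Leaving out 1 library raised edgeR's calls among the 35 to 7 without the F3 ZnSO4 library, 3 without the F1 ZnO library, 2 without the F2 ZnSO4 library and 1 without the F2 Fe2O3 library, all higher with ZnSO4. In the same fits edgeR called 426 (0.679%), 342 (0.542%), 378 (0.602%) and 41 (0.0653%) of all features. By direction, 31 of the 35 had estimates higher with ZnSO4 (50.4% of all features did), with a median log2 difference of 0.52, against 0.0019 over all features. Every ZnSO4 library lay above the ZnO library of its set in 27 features (77.1%, against 10.0% of all features). The 35 share embryos and libraries, so their number is a description and no test of the group.

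Among the 35, the smallest p was that of contig_48758, with ZnO at 48.2, 19.9 and 34.3 CPM in F1, F2 and F3 and ZnSO4 at 106 and 72.0, 36.2 and 53.5 CPM. The salt libraries were higher in each set. The log2 difference of ZnSO4 from ZnO was 0.83 (95% interval 0.47 to 1.19, edgeR adjusted p = 0.0663). In contig_03789, ZnO stood at 66.6, 18.4 and 30.6 CPM and ZnSO4 at 138 and 93.9, 35.4 and 45.5 CPM, again higher in each set, with a log2 difference of 0.81 (edgeR adjusted p = 0.0747). In contig_20334 it was 0.47, with a 95% interval of 0.09 to 0.84. In all but 4 features the estimate thus favoured the salt, by less than 1 on the log2 scale. The exceptions were contig_13916, contig_13931, LOC764451 and LOC100892571, with ZnO above ZnSO4 by 0.34, 0.32, 0.26 and 0.02, and the estimates of both LOC identifiers changed sign when single ZnO libraries were left out.

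Of the 35, LOC100892571 and LOC764451 differed between sets in their response to the zinc form, in a fit with a term for each set and treatment whose spread rests on the F1 pairs (4 residual degrees of freedom). This fit called 1552 features (2.47%), against 2 of the 35 (5.71%). In LOC100892571, F1 stood at 208 CPM with ZnO and at 137 and 135 with ZnSO4, F2 at 22.8 and 40.1 CPM, and F3 at 111 and 128 CPM. The particle was thus higher in F1 and the salt in F2 and F3, with log2 differences of ZnO from ZnSO4 of 0.62, -0.82 and -0.14 (edgeR adjusted p = 2.12e-06 for a difference between sets). In LOC764451, F1 stood at 30.9 CPM with ZnO and 28.3 and 28.7 with ZnSO4, F2 at 44.3 and 46.9 CPM, and F3 at 21.4 and 11.0 CPM. The forms were close in F1 and F2 and the particle was higher in F3, by 0.13, -0.09 and 1.02 on the log2 scale (edgeR adjusted p = 0.00628). DESeq2 kept the first of these calls and not that of LOC764451, and called 719 features in all (1.14%). ZnO has 1 library per set, so each difference rests on single ZnO libraries.

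The iron libraries entered the rule only through the minimum mean level, and in them the salt and the particle differed. Of the 35 features, 22 were higher with FeCl3 than with Fe2O3 (edgeR quasi-likelihood test, adjusted p under 0.05), and DESeq2 called 21. By either tool 0 were called lower, with 1 lower at an unadjusted p under 0.05. Among all 62865 features, DESeq2 called 49 (0.0779%). EdgeR called 46 (0.0732%), 44 higher with FeCl3 (0.0700%) and 2 higher with Fe2O3 (0.00318%). The 22 were thus 62.9% of the 35, and they made up 22 of the 44 features higher with the iron salt. Without the F1 Fe2O3 library that holds replicate 1, edgeR called 27 features in all, without the F3 Fe2O3 library 30 and without the F3 FeCl3 library 28, while 15 to 23 of the 35 were called over the 19 fits that left out 1 library. The 46 were contigs, LOC identifiers or metallothionein features and included 0 of the 28 features that carry a marker name. Another 16 of the 44 were named for metallothionein, and the remaining 6 were contigs or LOC identifiers whose zinc ratio was above 1 in every set and at least 2 in some set. Estimates were above 0 in 32 of the 35 (50.4% of all features), with a median log2 difference of FeCl3 from Fe2O3 of 1.32, against 0.0013 over all features. Every FeCl3 library lay above every Fe2O3 library of its set in 29 of the 35 (82.9%, against 4.89% of all features).

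Among the 35, the call with the smallest p was that of contig_50659. Fe2O3 stood at 8.18 and 10.0 CPM in F1, 5.08 in F2 and 7.91 in F3, and FeCl3 at 37.7 and 30.2, 16.2 and 21.9 CPM. All 4 salt libraries lay above all 4 particle libraries, and the log2 difference was 1.72 ± 0.12 (SE, edgeR adjusted p = 2.71e-08). In contig_20334, Fe2O3 stood at 0.344 and 0.384, 1.09 and 0.791 CPM and FeCl3 at 3.72 and 3.19, 3.11 and 3.51 CPM. The salt libraries were nearly level across sets, and the log2 difference was 2.39 ± 0.30 (SE, edgeR adjusted p = 0.00018).

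In contig_03789, Fe2O3 stood at 2.18 and 2.37 CPM in F1, 0.484 in F2 and 1.93 in F3, and FeCl3 at 12.4 and 10.8, 3.00 and 8.77 CPM, a log2 difference of 2.31 ± 0.22 (SE, edgeR adjusted p = 2.69e-06). In contig_48758, Fe2O3 stood at 1.72 and 1.85, 0.242 and 1.93 CPM and FeCl3 at 8.05 and 6.51, 3.30 and 9.13 CPM. The groups did not overlap in either feature, and F2 was the lowest set with both forms of iron. In contig_07081, Fe2O3 stood at 0.994 and 1.19, 0.0404 and 0.516 CPM and FeCl3 at 6.74 and 6.03, 0.807 and 1.48 CPM. The F2 salt library lay under both F1 particle libraries, so here the forms separated only within sets (log2 difference 2.39 ± 0.25, SE, edgeR adjusted p = 1.08e-05).

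The other 5 of the 10 calls with the smallest p among the 22 were contig_24890, contig_09798, contig_01904, contig_10271 and contig_24728, with log2 differences of 2.03, 2.08, 1.88, 2.13 and 1.59. In contig_09798, for example, Fe2O3 stood at 1.72 and 1.36, 0.888 and 1.48 CPM and FeCl3 at 7.28 and 7.22, 4.50 and 4.34 CPM, without overlap. The largest estimate, 3.07 in contig_33629, rests on 2, 0, 2 and 12 counts in the Fe2O3 libraries and 57, 28, 17 and 49 in the FeCl3 libraries. The weakest of the 22 calls was contig_12508 (edgeR adjusted p = 0.0499), which held in 1 of the 19 fits that left out a library. Of the 22 calls, 13 held in all 19, among them the 10 with the smallest p. Without F3 the number called was 14, and without a term for the set it was 0, as was that of all features.

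**Figure D2:**
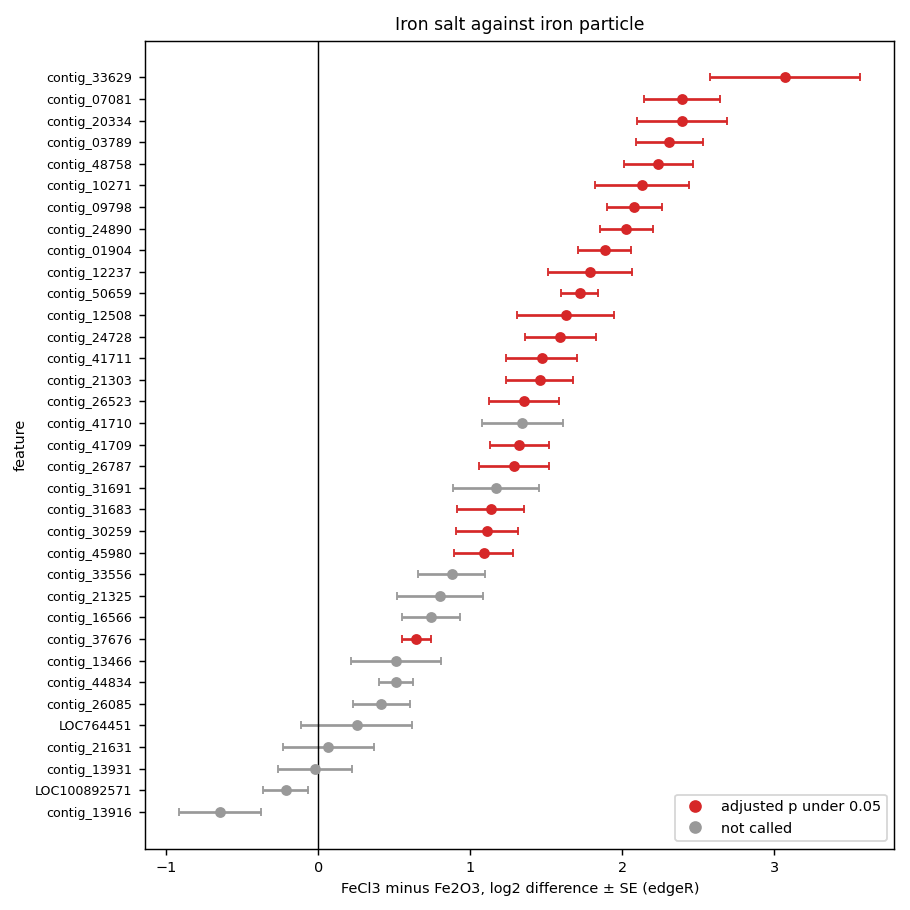
Log2 difference of FeCl3 from Fe2O3 with its SE (edgeR) for each of the 35 features. The 22 called features lie between 0.64 and 3.07, and contig_13916, LOC100892571 and contig_13931 lie below 0.

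Of the 13 features not called, 10 had estimates above 0, up to 1.34 in contig_41710 (edgeR adjusted p = 0.0571). The lowest was contig_13916, with Fe2O3 at 0.650 and 0.663, 2.18 and 0.516 CPM and FeCl3 at 0.641 and 0.373, 1.04 and 0.394 CPM. The salt libraries were the lower ones in each set, though the difference of -0.65 (95% interval -1.20 to -0.09) was not called. In LOC100892571, Fe2O3 stood at 65.5 and 69.4, 20.2 and 52.1 CPM and FeCl3 at 58.3 and 59.9, 17.1 and 45.9 CPM, a log2 difference of -0.21 (95% interval -0.52 to 0.09). In contig_13931, Fe2O3 stood at 10.1 and 12.2, 24.8 and 3.89 CPM and FeCl3 at 10.6 and 9.25, 26.5 and 5.09 CPM. Its forms overlapped, with a difference of -0.02 (95% interval -0.53 to 0.49). These 3 and LOC764451, whose iron difference was 0.25, are also the 4 whose estimates for zinc lay on the side of ZnO. None of the 4 was called between the zinc forms, and each 95% interval spanned 0. In each of the 4, the form with the higher estimate differed between sets.

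Set beside the zinc ratios, which chose the features, 15 of the 16 with a ratio of at least 4 in every set were called between the iron forms, and 7 of the other 19 were. This is a description and no test. The smallest ratio of a feature had a median of 5.27 among the called and 2.24 among the rest, and the ranges overlapped. For example, contig_37676 was called with a smallest ratio of 2.24, while contig_21325, with 4.79, and LOC764451, with 3.86, were not. Over the 35 features, the difference of FeCl3 from Fe2O3 correlated with the difference of ZnSO4 from ZnO at r = 0.694 (Spearman's rho = 0.593). This is a description across features measured in the same embryos and estimated in 1 fit, and the differences share no library.

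**Figure D3:**
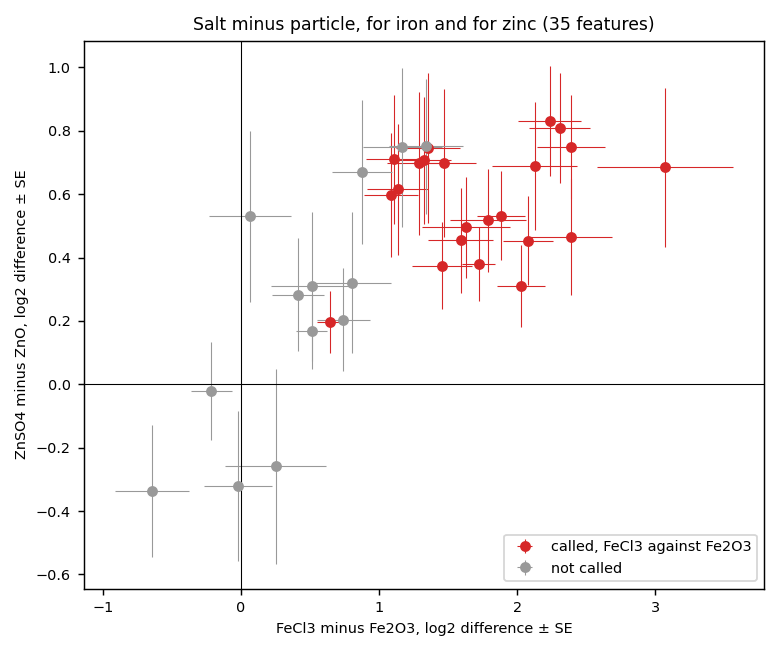
Log2 difference of salt from particle for iron (x axis) and for zinc (y axis), each with its SE, for the 35 features. The features called for iron lie between 0.20 and 0.83 for zinc, and the 4 features below 0 for zinc were not called for iron.

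Set beside the controls, which also enter the rule, the iron forms took different places. The summed CPM of the 35 features was 403 and 388 in the F1 controls, 199 in F2 and 372 in F3. With Fe2O3 it was 354 and 362, 190 and 279, and with FeCl3 692 and 599, 331 and 545. ZnO gave 2266, 805 and 1417, and ZnSO4 3372 and 2768, 1163 and 1738. In each set the order was Fe2O3, control, FeCl3, ZnO, ZnSO4. Means were 341 ± 95.0 CPM for control, 296 ± 80.1 for Fe2O3, 541 ± 153 for FeCl3 and 2260 ± 995 for ZnSO4 (SD, n = 4 each) and 1496 ± 734 for ZnO (SD, n = 3), so the spread over sets is wide. Within sets the sum with FeCl3 was 1.80, 1.74 and 1.95 times that with Fe2O3 in F1, F2 and F3, and the sum with ZnSO4 was 1.35, 1.44 and 1.23 times that with ZnO.

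Against control, 10 of the 35 features were called with FeCl3 by edgeR, all of them higher, where 17 features were called in all (0.0270%) and 15 of these were higher (0.0239%). The total was 11 without the F1 control that holds replicate 1 and also 11 without the F1 FeCl3 library that holds replicate 1. Of the 35, 33 had estimates above 0 (32346 of all 62865 features did), with a median of 0.96, against 0.0062 over all features. With Fe2O3 edgeR called no feature of the table (0.00%), and neither did DESeq2. At an unadjusted p under 0.05 edgeR counted 1821 features (2.90%), 10 of the 35 among them. With Fe2O3, 30 of the 35 had estimates below 0 (31422 of all 62865 features did). The median of the 35 was -0.33, against 6.1e-05 over all features. These comparisons share their controls with the rule and with each other, so nothing is read from the counts. The ratio of the mean CPM of the 8 iron libraries plus 1 to the mean CPM of the controls plus 1 was highest in contig_03789 (1.84), contig_48758 (1.74) and contig_20334 (1.64), and lowest in contig_13916 (0.880), contig_26085 (0.938) and contig_44834 (0.972). Of the 210 such ratios of 1 iron form to control in 1 set, also with 1 CPM added to both means, 28 were at least 2 and none was at or under 0.5. All 28 were of FeCl3, since the highest with Fe2O3 were 1.21, 1.46 and 1.23 in F1, F2 and F3. The added 1 CPM draws the ratios of features of low level toward 1.

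**Figure D4:**
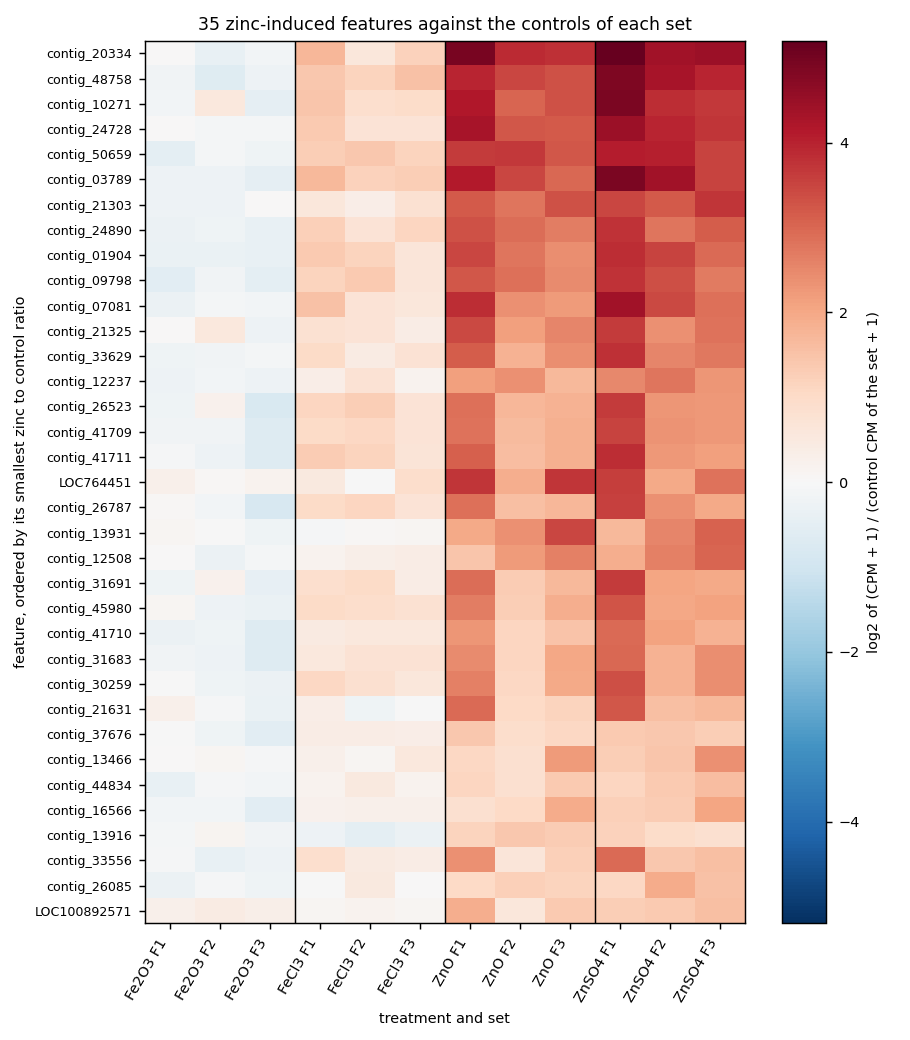
Log2 of the ratio of CPM + 1 to the controls' CPM + 1 of the same set, for the 35 features (ordered by their smallest zinc ratio) and the 4 treatments in 3 sets. The zinc columns are high by choice of the features, and the FeCl3 columns, with median ratios of 1.85, 1.63 and 1.53 in F1, F2 and F3, lie above those of Fe2O3, with 0.897, 0.900 and 0.823.

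Levels differed between sets in the 8 iron libraries, as they did for most of the table. Of 34 features that could be tested (contig_12508 fell under the filter), edgeR called 28 from F1 to F2 (61.7% of all features), 21 from F1 to F3 (59.7%) and 22 from F2 to F3 (52.2%). Of the 28, 20 were lower in F2 (31.4% of all features) and 8 higher (30.3%). The extremes were contig_37676, higher in F3 than in F1 by 4.56 on the log2 scale, and contig_07081, lower in F2 than in F1 with a log2 difference of -3.14. LOC764451 was higher in F2 than in F1, by 2.41. With Fe2O3 it stood at 2.06 and 1.78 CPM in F1, 11.7 in F2 and 0.929 in F3, and with FeCl3 at 2.53 and 2.24, 11.1 and 2.17 CPM. Its F2 libraries lay above all others with either form of iron.

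Some of the 35 carry neighbouring contig numbers, namely contig_41709, contig_41710 and contig_41711, and contig_31683 and contig_31691. The counts of contig_41709 were 7.69 to 15.5 times those of contig_41710 over the 19 libraries, while contig_41710 had 0.0504 to 0.411 times the counts of contig_41711. In F2, contig_41711 stood at 4.84 CPM in the control, 3.83 with Fe2O3, 12.0 with FeCl3, 16.6 with ZnO and 27.2 with ZnSO4, and contig_41709 at 16.4, 14.2, 35.9, 53.8 and 86.0 CPM. In F1, contig_41711 was at the level of contig_41709 or above it, with 22.2 and 18.3 CPM in controls and 351 and 250 with ZnSO4, against 21.4 and 17.6 and 262 and 208. Their treatments ranked alike within each set while their proportion changed between sets. How reads that match several contigs were counted is not given in the sources used here, so individual values of such contigs are uncertain, and pieces of 1 transcript would not be independent members.

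Genes of zinc handling with a name in the table were 23 metallothionein features and S39AE, a zinc transporter of the SLC39 family. With ZnO edgeR called 23 of the 24 higher than control (0.948% of all features were). The remaining feature had an estimate of -0.34, with an edgeR unadjusted p under 0.05, and DESeq2 called all 24 (2.62% of all features). With ZnSO4 edgeR called 23 higher (2.35% of all features) and S39AE lower (3.07%), with a log2 difference of -0.42 (edgeR adjusted p = 0.0032). The 24 were chosen with earlier results of these data known. Between the iron forms, 16 of the 24 were called lower with Fe2O3 than with FeCl3 (0.0700% of all features were), and all 24 had estimates below 0, with a median of -0.58. The largest were MT.2.23, at -2.08 ± 0.16 (SE, edgeR adjusted p = 5.32e-08), and MT.17.23, at -1.91 ± 0.13 (SE, edgeR adjusted p = 2.71e-08). Summed over the metallothionein features, Fe2O3 stood at 4428 and 4933 CPM in F1, 3309 in F2 and 5087 in F3, and FeCl3 at 6982 and 7045, 5390 and 7428 CPM. The salt was higher than the particle in each set for these named genes as well. Controls lay between the 2 forms in each set, at 5793 and 5616, 3886 and 6588 CPM. Against control, the 24 had a median log2 difference of -0.32 with Fe2O3 (24 below 0) and of 0.25 with FeCl3 (22 above 0 and 2 below). Between ZnO and ZnSO4, 0 of the 24 were called by edgeR and 0 by DESeq2, with 5 at an unadjusted p under 0.05.

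Of 6 heat shock features, which encode chaperones that refold damaged proteins, 5 were called higher than control with ZnSO4 by edgeR (2.35% of all features were), HSP74.1.2 by 2.99 and HSP74.2.2 by 1.76 on the log2 scale. With ZnO against control and between the iron forms, 0 of the 6 were called by edgeR and by DESeq2, and 0 had an unadjusted p under 0.05. Between the zinc forms edgeR called 0, with 5 at an unadjusted p under 0.05, and DESeq2 called 1 (0.304% of all features).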

How the data were processed

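Poly(A) RNA of 19 embryo libraries was compared. The authors deposited 1 table of whole-number counts per feature, without normalization, 63389 features by 19 libraries. Per the submitters' processing notes the tools were SAMtools 1.3.1, BWA 0.7.12-r1039 and Trim Galore 0.4.0, with no role stated. What the reads were aligned to, how they were counted, whether strand was used and how multiply matching reads were treated is not given in the sources used here. Reads of near-identical contigs may therefore be divided between them. No genome was used.

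CPM were computed from library totals. Counts were fitted with edgeR 4.0.16 (limma 3.58.1, R 4.3.3) after filterByExpr on treatment (62865 features) and TMM scaling, in a quasi-likelihood model with set and treatment over all 19 libraries (12 residual degrees of freedom). The form-by-set test used a term per set and treatment, and set differences were fitted in the 8 iron libraries (58963 features), each with 4 residual degrees of freedom. A feature was called where the Benjamini-Hochberg adjusted p, over every feature tested in that comparison, was under 0.05. The procedure was tested on simulated data.

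The members, gene lists and tests were chosen with earlier results of these data known. The rule for named members takes the 6 most abundant, the 6 with the highest smallest ratio, and the 3 highest and lowest ratios of iron to control. It also takes up to 10 called members with the smallest p between the zinc forms, between the iron forms and for the difference between sets. The 3 features on each side of the threshold are named too, and from the lists every zinc gene and up to 4 heat shock genes. contig_33629, contig_12508, contig_37676, contig_13931, contig_21325, contig_41710, contig_31683 and contig_31691 were named after their values were seen. Alternatives were RLE factors, DESeq2 1.42.0, no filter, no set term, a replicate block, and leaving out each library or set.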

Additional observations from a re-analysis of the deposited data

Results flagged for a closer look

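Of 76 groups of 4 libraries (19 named members, 4 treatments), 8 held a library far from the others by Dixon's criterion at the 95% level. Chance alone meets it in about 1 in 20 groups of like libraries, but these groups join 2 libraries of F1 with 1 of F2 and 1 of F3, and the sets differ strongly, so that share does not apply here. In all 8 it was the F2 library. LOC764451 stood at 11.1 CPM in the F2 control, at 11.7 in the F2 Fe2O3 library and at 11.1 in the F2 FeCl3 library, above the others of each group. LOC100892571 stood at 40.1 CPM in the F2 ZnSO4 library, below the others. Low F2 values were those of contig_03789 (0.758 CPM) and contig_09798 (1.12 CPM) in the control and of contig_48758 (0.242 CPM) with Fe2O3. The F2 Fe2O3 library was high in contig_13916, at 2.18 CPM.

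The difference between ZnO and ZnSO4 itself differed between sets in LOC100892571 (edgeR adjusted p = 2.12e-06) and in LOC764451 (edgeR adjusted p = 0.00628). The former passed the rule in F2 only through its ZnSO4 library.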

How the results depend on the processing

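Differences between sets set the main limit. With no set term the calls fell from 46 to 0 for Fe2O3 against FeCl3 (22 to 0 of the 35 members), from 49 to 0 for ZnO against ZnSO4, to 0 for FeCl3 against control (members 0), to 30 for ZnO against control (15 members) and to 116 for ZnSO4 against control (21 members). Without set F1 edgeR called 29 features for Fe2O3 against FeCl3, 300 for ZnO against ZnSO4 (2 members), 1981 for ZnSO4 against control and 6 members for FeCl3 against control. Without set F3 it called 25 (14 members) and 83 (1 member) for the iron and the zinc forms. DESeq2 called 191 features between the zinc forms, and 719 (1 member) for the form by set. LOC100892571 turned to -0.42 for ZnO against ZnSO4 without set F1, and LOC764451 to -0.10 without set F3. Over the fits without 1 library these estimates ran from -0.36 to 0.31 and from -0.088 to 0.69.

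Leaving out each library in turn, edgeR called 4 to 426 features between the zinc forms (0 to 7 members), with 4 without the F3 ZnO library, 426 without the F3 ZnSO4 library, 378 without the F2 ZnSO4 library and 342 without the F1 ZnO library. It called 27 to 50 between the iron forms (15 to 23 members), 651 to 1591 for ZnO against control, lowest without the F1 ZnO library, 0 to 1 for Fe2O3 against control and 11 to 22 for FeCl3 against control (8 to 13 members). The form-by-set fit was not run without a zinc library that is the only one of its treatment in its set. The rule gave 30 to 42 members over its alternatives.

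Library numbers within F1 did not pair libraries (correlations of deviations -0.0723 to 0.0495). The replicate block gave 275 calls for ZnO against ZnSO4 and 573 for ZnO against control, turned LOC100892571 to -0.37 for ZnO against ZnSO4, exchanged contig_12508 for contig_41710 among the members called between the iron forms, and changed no other call of a member. Causes of these shifts were not tested.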
